A study of Mus musculus with 18 samples.

Results

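The 10 genes described here were found by their symbols among the 25124 genes of the count tables. They encode the route by which long-chain fatty acids enter mitochondria and are oxidised there. Cpt1a, Cpt1b, Slc25a20 and Cpt2 carry the fatty acid across the mitochondrial membranes, Acadvl, Acadl, Acadm and Acads encode acyl-CoA dehydrogenases, and Hadha and Hadhb encode the subunits of the trifunctional protein. RNA came from inguinal white fat (iWAT, subcutaneous), epididymal white fat (eWAT, visceral) and brown fat (BAT) of male mice on the C57BL/6J background. Mice were either wild type (WT) or lacked caspase-6 in the whole body (C6KO), both bred from heterozygous parents. All of them, WT included, ate a diet rich in fat (60%) over 12 weeks, begun at 10 to 14 weeks of age, so every group was diet-fed. Each depot and genotype held 3 libraries, 18 in all. Because the deletion was germline, a change that arose in fat cells and one that reached fat from other tissues cannot be told apart.

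In this pathway carnitine palmitoyltransferase 1, on the outer mitochondrial membrane, joins a long-chain acyl group to carnitine, and malonyl-CoA inhibits it. The translocase Slc25a20 exchanges acylcarnitine across the inner membrane, and Cpt2 turns it back into acyl-CoA. Each round of beta-oxidation then begins with an acyl-CoA dehydrogenase chosen by chain length and, for long chains, is completed by the trifunctional protein. Brown fat is known for burning fatty acids to make heat, whereas white fat mainly stores them.

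The libraries held from 16506034 to 19139694 counts in white fat and from 7803108 to 12428683 in BAT. Levels are given as TPM, which divide a count by gene length and library size and can be compared between genes, and genotypes are compared on CPM, counts scaled within a depot by the trimmed mean of M-values (TMM). The 8 brown adipocyte markers summed to 14921 to 31941 TPM in BAT and to 60.9 to 337 TPM in white fat. Casp6 did not overlap between genotypes, at 5.55 to 7.98 CPM in C6KO against 16.1 to 20.1 CPM in WT iWAT, 4.29 to 6.65 against 19.0 to 23.1 CPM for eWAT and 3.07 to 6.91 against 11.2 to 18.7 CPM for BAT. Its log2 difference was -1.51 ± 0.20 (SE; adjusted p = 0.0751, edgeR), -1.85 ± 0.19 (0.0132) and -1.50 ± 0.33 (0.0671), called in eWAT, and DESeq2 called it in all 3 depots. In 2 libraries markers of other cells stood apart. In BAT WT replicate 2 the 10 skeletal muscle markers summed to 39767 TPM, against 265 to 6344 TPM in the other 5 BAT libraries, and its brown adipocyte sum, 14921 TPM, was the lowest of the 6. On log2 CPM scaled over the 18 libraries the 10 genes lay below their group mean in it, by a median of -0.42, although Cpt1a did not on TPM. In iWAT C6KO replicate 3 the 8 macrophage markers summed to 1887 TPM, against 547 and 620.0 TPM in the other C6KO libraries, and hepatocyte markers to 411 TPM against 72.0 and 60.7 TPM. Counts of genes between genotypes in BAT and iWAT are therefore also given without these libraries.

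The DNA before the starts of 4 of the genes is shown first. RefSeq promoters (GRCm38.p6, the assembly also called mm10, the build of the count tables) were found for 9 of the 10 genes, all but Cpt1b. The 250 bases before each start were searched on both strands for AGGTCA, the half-site of nuclear receptors, and for GGGCGG, the GC box. Matches are in capitals, and those on the other strand read TGACCT and CCGCCC. Cpt1a (chr19:3323051-3323300, plus strand) is shown because its level ran opposite to the other genes, and Acadvl (chr11:70015429-70015678, minus strand) and Acadm (chr3:153944644-153944893, minus strand) because they hold a half-site and no GC box. Hadha (chr5:30154981-30155230, minus strand) is shown because it shares this DNA with Hadhb.
Cpt1a: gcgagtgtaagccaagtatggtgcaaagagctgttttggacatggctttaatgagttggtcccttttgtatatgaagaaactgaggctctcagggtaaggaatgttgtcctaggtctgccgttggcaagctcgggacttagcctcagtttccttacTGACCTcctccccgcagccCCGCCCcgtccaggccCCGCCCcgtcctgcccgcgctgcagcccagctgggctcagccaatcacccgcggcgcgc
Acadvl: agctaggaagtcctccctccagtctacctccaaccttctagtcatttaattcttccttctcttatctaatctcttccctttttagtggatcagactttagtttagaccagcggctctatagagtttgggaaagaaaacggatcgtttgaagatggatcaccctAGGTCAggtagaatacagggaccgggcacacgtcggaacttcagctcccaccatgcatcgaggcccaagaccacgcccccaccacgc
Acadm: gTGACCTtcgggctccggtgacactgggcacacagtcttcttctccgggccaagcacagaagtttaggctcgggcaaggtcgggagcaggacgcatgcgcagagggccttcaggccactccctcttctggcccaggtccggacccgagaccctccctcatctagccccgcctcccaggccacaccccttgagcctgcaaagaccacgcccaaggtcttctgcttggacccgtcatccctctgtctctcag
Hadha: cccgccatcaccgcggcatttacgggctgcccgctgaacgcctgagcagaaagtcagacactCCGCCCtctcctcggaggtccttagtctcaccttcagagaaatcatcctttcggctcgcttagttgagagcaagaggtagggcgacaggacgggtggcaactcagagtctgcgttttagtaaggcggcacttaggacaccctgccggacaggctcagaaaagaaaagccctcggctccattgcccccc
The half-site was found in 3 of the 9 promoters and in 14% of all 32851 promoters of this length. The GC box was found in 7 of the 9, all but Acadvl and Acadm, and in 32.7% of all promoters. A direct repeat of the half-site with 1 base between was found in 0 of the 9 and in 0.0335% of all. The transcripts of Hadha and Hadhb run on opposite strands with 272 bases between their starts, so 228 of the 250 bases shown for Hadha also lie before Hadhb. The GC box of Hadha, at -188 to -183, is the same stretch of DNA as that of Hadhb at -90 to -85. Among the 7 promoters with a GC box these matches are therefore not separate. These are matches of letters only.

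The summed level of the 10 genes was far higher in BAT than in white fat. In WT mice the sum was 2411 to 2474 TPM in iWAT, 1521 to 1694 TPM in eWAT and 13722 to 19305 TPM in BAT. In C6KO mice it was 2604 to 2793 TPM in iWAT, 1775 to 2172 TPM in eWAT and 18689 to 21759 TPM in BAT. The depots did not overlap in either genotype. Acadm was the most abundant of the 10 in WT iWAT, at 675 ± 54.1 TPM (SD, n = 3), and in WT eWAT, at 367 ± 43.9 TPM, whereas Acadl was in WT BAT, at 3742 ± 677 TPM. Cpt1b was the least abundant in WT eWAT, at 8.41 ± 0.803 TPM, and Cpt1a in WT BAT, at 44.6 ± 7.23 TPM.

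**Figure D1:**
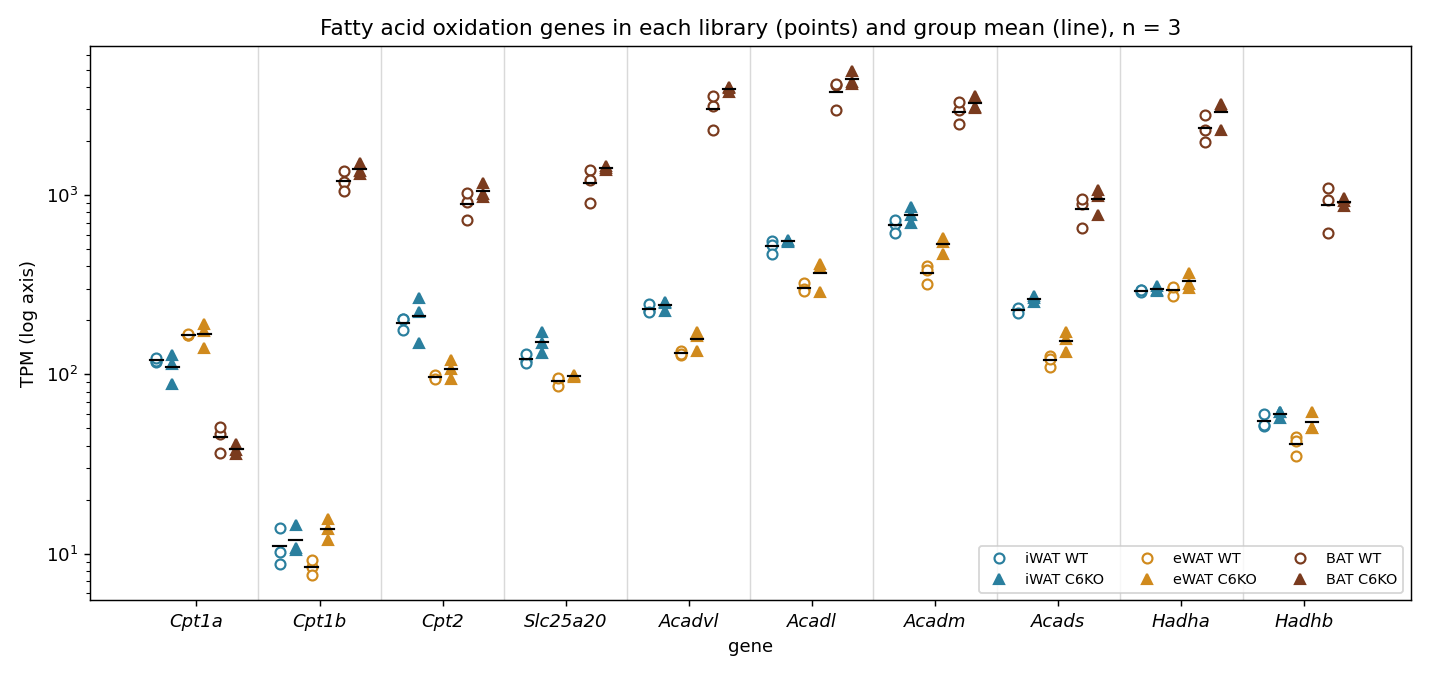
TPM of the 10 genes (log axis) in every library, by depot (colour) and genotype (open circles WT, filled triangles C6KO), with a line at each group mean (n = 3). Cpt1a lies lower in BAT, at 35.9 to 50.5 TPM against 88.5 to 190.3 TPM in white fat, and the other 9 genes lie higher there.

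The forms of carnitine palmitoyltransferase 1 changed places between white and brown fat. Cpt1a (chr19:3323301-3385733), the form that predominates in liver, measured 117, 119 and 123 TPM in the WT iWAT libraries, 166, 166 and 167 TPM in WT eWAT and 36.6, 46.7 and 50.5 TPM in WT BAT. Cpt1b (chr15:89416405-89425862), the form of muscle, measured 8.80, 10.2 and 13.9 TPM in WT iWAT, 8.42, 7.59 and 9.20 TPM in WT eWAT and 1178, 1055 and 1356 TPM in WT BAT. Every BAT library was below every white fat library for Cpt1a and above every one for Cpt1b. Cpt1b made up 8.34% ± 1.63 (SD, n = 3) of the summed Cpt1a and Cpt1b TPM in WT iWAT, 4.81% ± 0.417 in WT eWAT and 96.4% ± 0.615 in WT BAT. The sum of both was 131 ± 5.73 TPM in WT iWAT, 175 ± 1.65 TPM in WT eWAT and 1241 ± 154 TPM in WT BAT. The BAT library with the highest muscle marker sum had the lowest Cpt1b of the 6. The annotated gene Gm44502 shares 2744 exon bases with Cpt1b on the same strand (GENCODE M21), so their reads could not be told apart.

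**Figure D2:**
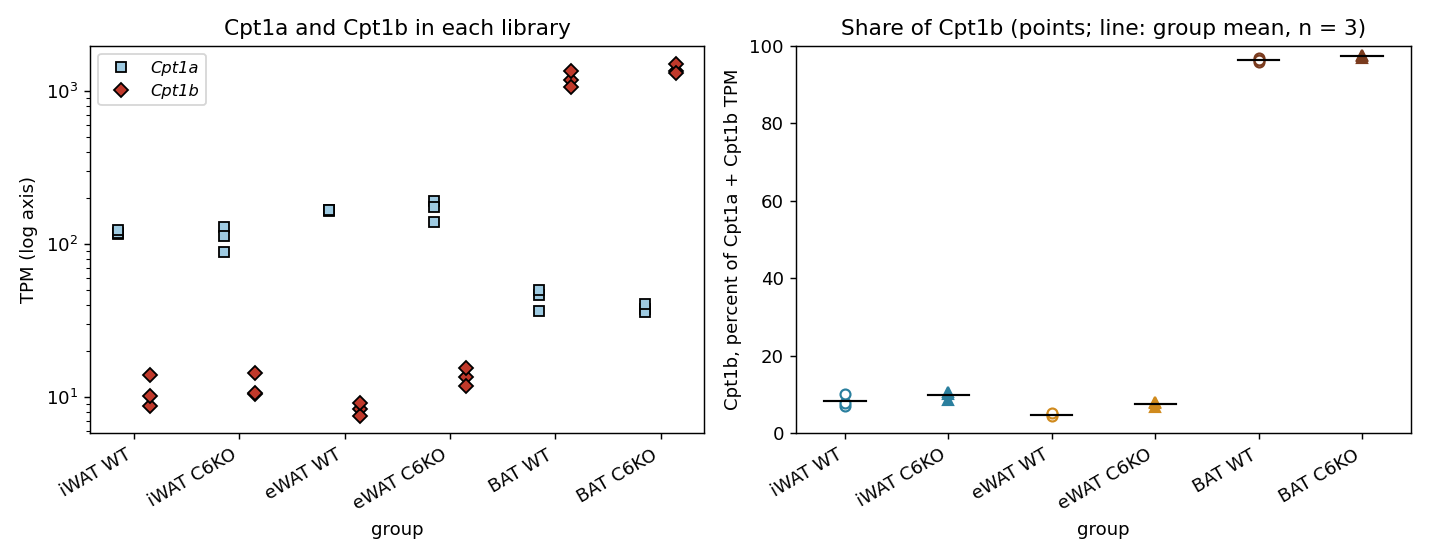
Left, TPM of Cpt1a (squares) and Cpt1b (diamonds) in each library on a log axis; right, Cpt1b as a percent of both, with the group mean as a line (n = 3). The share lies between 4.38% and 10.6% in white fat and between 95.8% and 97.7% in BAT.

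The carriers of the inner membrane followed the other genes. Slc25a20 (chr9:108662136-108684642), the carnitine-acylcarnitine translocase, measured 119, 116 and 130.1 TPM in WT iWAT, 93.8, 86.1 and 95.3 TPM in WT eWAT and 1378, 897 and 1211 TPM in WT BAT. Cpt2 (chr4:107903982-107923589), which re-forms acyl-CoA in the matrix, measured 177, 202 and 202 TPM in WT iWAT, 95.0, 99.2 and 94.4 TPM in WT eWAT and 911, 726 and 1029 TPM in WT BAT. For both genes the depots did not overlap, in the order BAT, iWAT, eWAT, and replicate 2 was the lowest WT BAT library.

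The acyl-CoA dehydrogenases held that order too, but in unequal proportion. Acadvl (chr11:70010183-70015428), which takes very long chains, measured 227, 245 and 222 TPM in WT iWAT, 134, 129 and 129.5 TPM in WT eWAT and 3139.6, 2304 and 3573 TPM in WT BAT. Acadl (chr1:66830839-66863309), for long chains, measured 555, 528 and 467 TPM, 322, 298 and 292 TPM and 4125, 2959.6 and 4141 TPM in the same depots. In both genes every BAT library lay above every iWAT library and every iWAT library above every eWAT library. Acadm (chr3:153922353-153944643), for medium chains, measured 686, 617 and 723 TPM in WT iWAT, 402, 318 and 382 TPM in WT eWAT and 2972, 2493 and 3277 TPM in WT BAT. Acads (chr5:115110299-115119346), for short chains, measured 230.1, 234 and 221 TPM, 127, 110.1 and 122 TPM and 893, 652 and 948 TPM. The order was the same for these shorter-chain enzymes, with smaller gaps between BAT and white fat. As a share of the 4 genes' summed TPM, Acadvl was 14.01% ± 0.948 in WT iWAT, 14.2% ± 0.751 in WT eWAT and 28.5% ± 1.29 in WT BAT (SD, n = 3). Acadm went the other way, at 40.9% ± 3.19, 39.8% ± 2.23 and 27.9% ± 1.53, as did Acads, at 13.8% ± 0.491, 13.0% ± 0.148 and 7.91% ± 0.141. The shares of Acadl lay closer together, at 31.3% ± 2.32, 33.0% ± 1.66 and 35.6% ± 1.25. Acadvl shares 1151 exon bases with Dvl2 on the opposite strand, and since strand-specific counting is not stated, reads of the 2 genes there may not be told apart.

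Hadha and Hadhb, whose products form 1 complex, differed in level. Hadha (chr5:30119423-30154980), with the hydratase and hydroxyacyl-CoA dehydrogenase, measured 295, 288 and 294 TPM in WT iWAT, 301, 273 and 307 TPM in WT eWAT and 2288, 1972 and 2781 TPM in WT BAT. Hadhb (chr5:30155253-30184593), with the thiolase, measured 59.8, 51.7 and 52.3 TPM in WT iWAT, 44.7, 35.1 and 42.3 TPM in WT eWAT and 1090.2, 616 and 939 TPM in WT BAT. The white depots overlapped for Hadha and not for Hadhb. Hadha exceeded Hadhb in every library, by 5.38 ± 0.390 times in WT iWAT, 7.25 ± 0.530 times in WT eWAT and 2.75 ± 0.580 times in WT BAT (SD, n = 3). These ratios rest on the length of 1 transcript per gene.

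Depots were compared by edgeR's quasi-likelihood test in 1 fit of all 18 libraries, and a gene was called when its adjusted p was under 0.05 and it differed at least 1.5-fold. In WT mice 9 of the 10 genes were higher in BAT than in iWAT and 1, Cpt1a, was lower, where 20.1% of the 15866 genes tested were called higher and 18.7% lower. The median log2 difference was 3.26 for the 10 genes and 0.0111 for all genes. Cpt1b had the smallest p of all genes tested, with a log2 difference of 7.09 ± 0.22 (SE; 136-fold, adjusted p = 2.7e-12). After it came Hadhb (4.36 ± 0.23), Acadvl (4.03 ± 0.19), Slc25a20 (3.60 ± 0.19), Hadha (3.33 ± 0.17), Acadl (3.19 ± 0.21), Cpt2 (2.52 ± 0.20), Acadm (2.43 ± 0.17) and Acads (2.20 ± 0.18). Cpt1a stood at -1.12 ± 0.13 (adjusted p = 3.9e-06).

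Against eWAT, in a comparison that shares the BAT libraries, again 9 genes were higher and Cpt1a lower in BAT, where 25% of all genes were called higher and 23.6% lower. The median log2 difference was 3.87 against 0.0264 for all genes, and each estimate was farther from 0 than against iWAT. Cpt1b stood at 7.61 ± 0.23 (195-fold, adjusted p = 1.4e-12), Acadvl at 4.98 ± 0.20, Hadhb at 4.92 ± 0.24, Acads, the smallest of the 9, at 3.26 ± 0.19 and Cpt1a at -1.46 ± 0.13 (adjusted p = 9.6e-08). Without WT BAT replicate 2 the counts of 9 and 1 were the same in both comparisons, with Cpt1b at 7.22 and 7.74. In C6KO mice 9 genes were likewise higher and Cpt1a lower, against iWAT (all genes 18% higher, 20.2% lower) and against eWAT (23.6% and 26.5%). There Cpt1b stood at 7.11 ± 0.22 and 7.10 ± 0.22 and Cpt1a at -1.29 ± 0.13 and -1.71 ± 0.14. All samples were bulk tissue, in which fewer cells of a type and less RNA per cell cannot be told apart.

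Within white fat the dehydrogenases and Cpt2 were lower in eWAT. In WT mice 5 of the 10 genes were called lower in eWAT than in iWAT and 0 higher, where 12.9% of all genes were called lower and 12.8% higher. They were Cpt2 (-1.14 ± 0.20, adjusted p = 3.8e-04, edgeR), Acads (-1.06 ± 0.17), Acadm (-1.01 ± 0.16), Acadvl (-0.95 ± 0.17) and Acadl (-0.89 ± 0.19). Hadhb (-0.56 ± 0.20), Slc25a20 (-0.54 ± 0.18) and Cpt1b (-0.52 ± 0.18) had adjusted p-values of 0.0462, 0.0277 and 0.0374 but missed the fold change. Hadha was at -0.13 ± 0.15, and Cpt1a alone had an estimate above 0, at 0.34 ± 0.13 (adjusted p = 0.0538). In C6KO mice 6 genes were called lower, those 5 and Slc25a20 (-0.81 ± 0.18), and 0 higher, where 10.5% of all genes were called lower and 14.1% higher. Cpt1b stood there at 0.0174 ± 0.18. Macrophage markers also differed between these depots, with 8 of 8 called higher in WT eWAT and a sum of 9629 to 11274 TPM against 2575 to 2839 TPM, and 6 of 6 adipocyte markers were called lower, with 23293 to 29216 TPM against 54766 to 64123 TPM. As a percent of the adipocyte marker sum the 10 genes stood higher in WT eWAT, at 6.26% ± 0.405, than in WT iWAT, at 4.13% ± 0.272 (SD, n = 3). The part of cell composition in these differences was not tested.

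**Figure D3:**
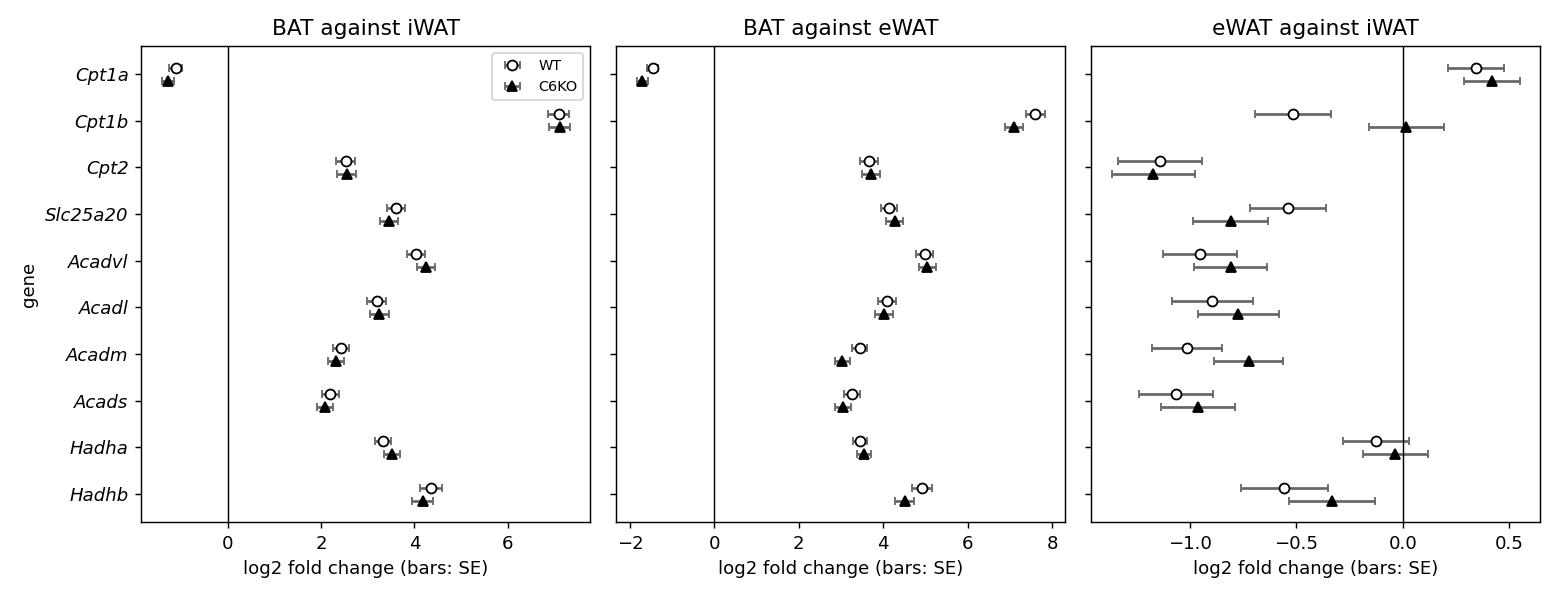
Log2 fold change of the 10 genes between depots (bars, SE), in WT (open circles) and C6KO (filled triangles); each panel has its own horizontal scale. Cpt1b lies farthest to the right against both white depots, at 7.09 and 7.61 in WT, and Cpt1a alone lies left of 0 there, at -1.12 and -1.46.

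C6KO was then compared with WT within each depot, which asks whether the loss of caspase-6 went with a change in these genes. By edgeR 0 of the 10 were called in any depot, where 0.0275% of the 14533 genes tested for iWAT, 0.746% of 14889 for eWAT and 1.24% of 13595 for BAT were called. At an unadjusted p under 0.05 there were 2, 5 and 0 of the 10 (iWAT, eWAT, BAT), all higher in C6KO, against 7.25%, 9.81% and 4.56% of all genes. DESeq2 called 0, 1 and 0 of the 10 (Cpt1b in eWAT), against 1.18%, 2.77% and 1.05% of all genes called higher. On data simulated from these libraries 8.33% to 9.34% of edgeR's calls and 16.7% to 23.9% of DESeq2's were false over the depots. That simulation took its spread from edgeR's estimates, changed genes by 2 on the log2 scale and gave DESeq2 no low-count filter. It therefore cannot rank the tools for changes as small as these. Genes called by DESeq2 alone remain less certain, as edgeR did not call them. Estimates lay above 0 for 9, 10 and 9 of the 10 genes, against 53.8%, 49.1% and 46.1% of all genes. The median log2 difference of the 10 was 0.20, 0.30 and 0.24, against 0.0274, -0.00605 and -0.0318 for all genes.

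In eWAT the largest estimate was that of Cpt1b. It measured 9.68, 8.90 and 10.3 CPM in WT and 15.7, 14.7 and 17.4 CPM in C6KO libraries, without overlap. The log2 difference was 0.72 ± 0.15 (SE; 1.65-fold, adjusted p = 0.0571, edgeR), short of the threshold, and DESeq2 gave 0.73 ± 0.19 (adjusted p = 0.00534). It rested on 163 to 177 counts in WT and 261 to 300 in C6KO, whose counting error, 7.72% and 5.99%, stood against a spread between libraries of 7.36% and 8.57% (SD as a percent of the mean CPM). Without C6KO replicate 2 edgeR called it, at 0.79 ± 0.16 (adjusted p = 0.0465). The share of Cpt1b in the summed Cpt1a and Cpt1b TPM was 4.38% to 5.21% in WT and 6.69% to 8.17% in C6KO eWAT. Cpt1a measured 284, 289.9 and 279.9 CPM in WT and 326, 258 and 291 CPM in C6KO, so the genotypes overlapped (0.0351 ± 0.11). Skeletal muscle markers, whose tissue uses Cpt1b, summed to 142 ± 37.4 TPM in WT and 239 ± 95.8 TPM in C6KO eWAT (SD, n = 3), with overlap. Brown adipocyte markers, whose tissue had high Cpt1b here, summed to 75.9 ± 17.8 TPM in WT and 84.5 ± 16.2 TPM in C6KO eWAT. That sum and each of its 8 markers overlapped between genotypes. The part of muscle or brown adipocytes was not tested.

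Acadm had the next largest estimate in eWAT. It measured 329, 266 and 305 CPM in WT and 473, 479 and 376 CPM in C6KO, without overlap (0.56 ± 0.13, adjusted p = 0.0691, edgeR). DESeq2 gave 0.57 ± 0.14 (adjusted p = 0.00333), under the fold change asked. Acadm lies 24.02 Mb from Casp6 on the same chromosome, and a part of DNA flanking the deletion was not tested. Hadhb measured 36.8, 29.4 and 34.0 CPM in WT and 50.8, 44.5 and 40.4 CPM in C6KO (0.44 ± 0.13, adjusted p = 0.120, edgeR). Acads measured 94.3, 83.5 and 88.2 CPM and 127, 125 and 96.2 CPM (0.39 ± 0.13, adjusted p = 0.149). With Slc25a20 (0.13 ± 0.10) and Hadha (0.20 ± 0.11), 6 of the 10 genes had every C6KO library above every WT one, against 12% of all genes. Acadl (0.30 ± 0.16), Acadvl (0.29 ± 0.13) and Cpt2 (0.18 ± 0.12) overlapped, and replicate 3 was the lowest C6KO library for each. Without that library the median of the 10 genes was 0.44 in place of 0.30.

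In iWAT the largest estimate was that of Slc25a20. It measured 82.9, 77.6 and 88.6 CPM in WT and 95.5, 124 and 108 CPM in C6KO libraries (0.39 ± 0.13, adjusted p = 0.203, edgeR). Acads measured 171, 168 and 161 CPM and 206, 195 and 209.6 CPM (0.29 ± 0.11, adjusted p = 0.250). With Acadm (0.27 ± 0.14), Acadl (0.18 ± 0.13) and Hadha (0.11 ± 0.12), 5 of the 10 genes had C6KO libraries all above the WT ones, against 10.9% of all genes. Hadhb (0.21 ± 0.12), Cpt2 (0.21 ± 0.20), Cpt1b (0.19 ± 0.22), Acadvl (0.15 ± 0.12) and Cpt1a (-0.0410 ± 0.15) overlapped. The C6KO libraries spread widely for Cpt2, from 145 to 258 CPM, against 166 to 186 CPM in WT. Without C6KO replicate 3, where edgeR called 2.21% of all genes higher, 0 of the 10 were called, 1, Slc25a20, reached an unadjusted p under 0.05 (10.5% of all genes, higher), 9 lay above 0 (50.5%) and the median was 0.16.

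In BAT the estimates depended on 1 library. Acadvl measured 3404, 2133 and 3294 CPM in WT and 3913, 3832 and 3716 CPM in C6KO libraries (0.38 ± 0.21, adjusted p = 0.498, edgeR). It and Cpt1b (0.23 ± 0.18) were the 2 genes of 10 with every C6KO library higher, against 8.07% of all genes. Hadha (0.31 ± 0.21), Slc25a20 (0.27 ± 0.23), Acadl (0.25 ± 0.21), Cpt2 (0.25 ± 0.20), Acads (0.19 ± 0.22), Acadm (0.16 ± 0.19), Hadhb (0.0455 ± 0.25) and Cpt1a (-0.20 ± 0.14) overlapped. For 9 of the 10 genes, all but Cpt1a, WT replicate 2 was the lowest of the 6 libraries. Without it the estimates ran from -0.20 (Cpt1a) to 0.19 (Acadvl), with Hadhb at -0.18 ± 0.18, 8 above 0 (against 50.7% of all genes) and a median of 0.0873, and 0 were called by edgeR or reached an unadjusted p under 0.05, which 5.58% of all genes did with a higher estimate.

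**Figure D4:**
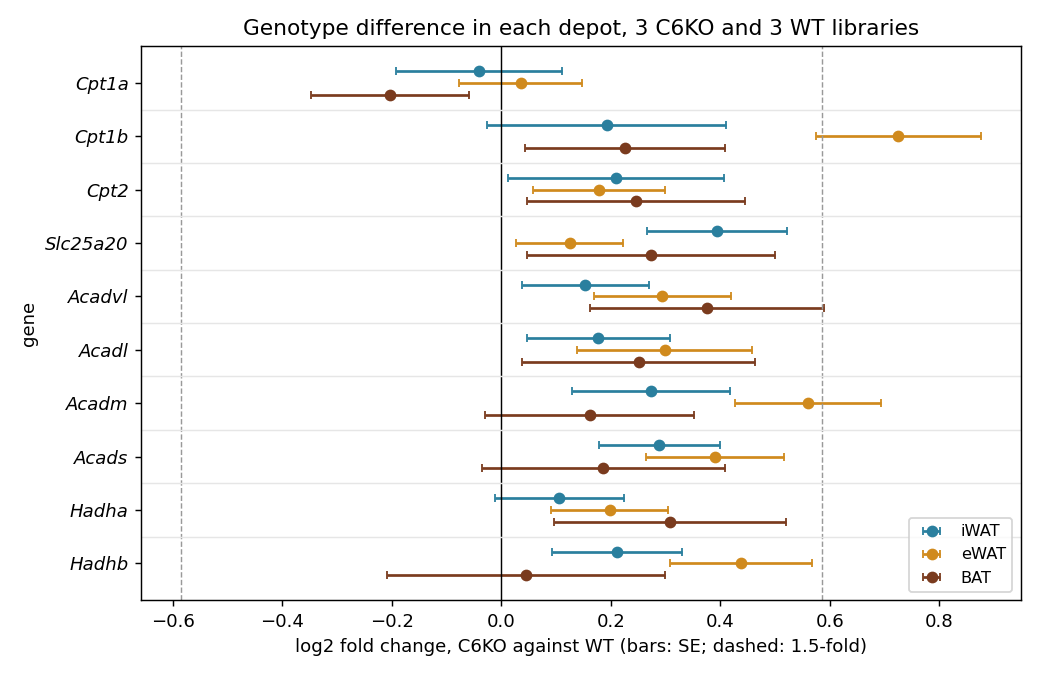
Log2 fold change of C6KO against WT for the 10 genes in each depot (points; bars, SE; 3 libraries per genotype), with dashed lines at the 1.5-fold limit. Cpt1b in eWAT lies past that limit, at 0.72, and Cpt1a lies below 0 in iWAT and BAT, at -0.0410 and -0.20.

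Whether the genotype difference itself differed between depots was tested as an interaction. By edgeR 0 of the 10 genes were called, 0 reached an unadjusted p under 0.05 and DESeq2 called 0, for BAT against iWAT (where 0.183% of all genes were called), BAT against eWAT (0.536%) and eWAT against iWAT (0%). For Cpt1b the genotype difference was larger in eWAT than in iWAT by 0.53 ± 0.25 on the log2 scale (adjusted p = 0.905), and its value in BAT minus that in eWAT was -0.51 ± 0.25 (adjusted p = 0.459). Without WT BAT replicate 2 the differences of BAT minus eWAT lay below 0 for all 10 genes, against 55.3% of all genes tested. Hadhb (-0.66 ± 0.21), Cpt1b (-0.64 ± 0.24) and Acadm (-0.56 ± 0.21) then reached an unadjusted p under 0.05, as did 8.18% of all genes below 0, and 0 of the 10 were called, where 0.558% of all genes were. Without iWAT C6KO replicate 3 again 0 of the 10 were called in either interaction with iWAT.

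Other enzymes of beta-oxidation were followed from a list of 18. By edgeR 0 were called between genotypes in any depot. Estimates lay above 0 for 17, 18 and 18 of 18 (iWAT, eWAT, BAT), against 53.8%, 49.1% and 46.1% of all genes. The median log2 differences of the list were 0.31, 0.36 and 0.18. At an unadjusted p under 0.05 there were 9, 11 and 5, all higher in C6KO, against 7.25%, 9.81% and 4.56% of all genes. Acad12, of the acyl-CoA dehydrogenase family, measured 7.73, 5.30 and 9.21 CPM in WT and 17.5, 12.7 and 17.7 CPM in C6KO eWAT (1.11 ± 0.23, adjusted p = 0.0571, edgeR). In iWAT it stood at 0.74 ± 0.20 and Acad10, of the same family, at 0.64 ± 0.22. Hsd17b10, a hydroxyacyl-CoA dehydrogenase, had the largest estimate in BAT, 0.79 ± 0.21, followed by Acad11, a further family member, at 0.61 ± 0.21. DESeq2 called Eci1, Acad11 and Acad12 higher in iWAT, Acad12 in eWAT and Hsd17b10 in BAT, against 1.18%, 2.77% and 1.05% of all genes. Without iWAT C6KO replicate 3 edgeR called 4 of the 18 higher in iWAT, against 2.21% of all genes. They were Acad10, Acad11, Acad12 and Etfa, an electron acceptor of the dehydrogenases. There 15 of the 18 lay above 0 (50.5% of all genes), with a median of 0.30. Without BAT WT replicate 2 the enzymes above 0 in BAT fell from 18 to 12 (50.7% of all genes) and the median from 0.18 to 0.0798. Those at an unadjusted p under 0.05 fell from 5 to 3 (5.58% of all genes, higher), with Hsd17b10 at 0.68 ± 0.22 and Acad11 at 0.49 ± 0.19.

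Among 11 genes of fatty acid activation, carnitine uptake and malonyl-CoA, Acacb and Mlycd had no overlap between genotypes in any depot. Every C6KO library was higher for 3, 2 and 4 of the list (iWAT, eWAT, BAT), against 10.9%, 12% and 8.07% of all genes. Every C6KO library was lower for 1 of the list in iWAT and 1 in BAT, a direction whose share over all genes is not given here. Acacb encodes the acetyl-CoA carboxylase bound to mitochondria, whose product malonyl-CoA inhibits carnitine palmitoyltransferase 1. It measured 144, 143 and 196 CPM in WT and 374, 464 and 305 CPM in C6KO iWAT. In eWAT it measured 78.7, 61.0 and 69.0 CPM and 136, 117 and 95.7 CPM, and in BAT 565, 812 and 939 CPM and 1594, 1724 and 1409 CPM. The log2 differences were 1.24 ± 0.20, 0.74 ± 0.15 and 1.03 ± 0.22, with adjusted p-values of 0.113, 0.0533 and 0.0661 by edgeR and 1.8e-06, 6.2e-04 and 1.1e-04 by DESeq2, which called all 3. Mlycd encodes malonyl-CoA decarboxylase, which removes malonyl-CoA, and stood at 0.58 ± 0.11, 0.29 ± 0.11 and 0.54 ± 0.18, with adjusted p-values of 0.145, 0.191 and 0.211 by edgeR. Without iWAT C6KO replicate 3 edgeR called Acacb (1.35 ± 0.18, adjusted p = 0.00252), Mlycd (0.61 ± 0.12, 0.0148) and Slc22a5 (1.05 ± 0.14, 0.00264) higher in iWAT. There 2.21% of all genes were called higher. Without BAT WT replicate 2 Acacb stood at 1.07 ± 0.23 and Mlycd at 0.50 ± 0.19 in BAT. At an unadjusted p under 0.05, 3 of the list were then higher and 0 lower, against 5.58% and 7.81% of all genes. Slc22a5, which takes carnitine into the cell, stood at 0.86 ± 0.21 in iWAT and 0.71 ± 0.28 in eWAT. In BAT Acsl6, a long-chain acyl-CoA synthetase, had few counts and a wide error, at -1.55 ± 1.72, and turned to 2.12 ± 1.04 without WT replicate 2. By edgeR 0 of the list were called, and DESeq2 also called Slc22a5 in iWAT and BAT. At an unadjusted p under 0.05 there were 3, 3 and 4 higher and 0, 0 and 1 lower. Over all genes 7.25%, 9.81% and 4.56% were higher at that p.

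Of 12 regulators of the pathway 0 were called between genotypes by edgeR, and DESeq2 called 1, the corepressor Ncor1 in iWAT. At an unadjusted p under 0.05 there were 2, 4 and 1 higher and 2, 0 and 0 lower. Over all genes 7.25%, 9.81% and 4.56% were higher at that p. Esrrg, an estrogen-related receptor, stood at -1.32 ± 0.44 in iWAT and 0.84 ± 0.28 in eWAT, and Ppara, the nuclear receptor that governs fatty acid oxidation, at 0.84 ± 0.51 and 0.55 ± 0.20. In BAT the largest estimates were those of Ppard (0.52 ± 0.22) and Ncor1 (0.33 ± 0.21), which without WT replicate 2 stood at 0.65 ± 0.24 and 0.48 ± 0.21. Without iWAT C6KO replicate 3 edgeR called Esrrg lower (-1.83 ± 0.42) and Ncor1 higher (0.85 ± 0.14) in iWAT, where 8.64% of all genes were called. The transcript counted for Esrrg differed between the tables, so its signs in iWAT and eWAT belong to different transcripts. Of 4 ketone body genes 0 were called by edgeR, with 1 higher at an unadjusted p under 0.05 in each depot. Over all genes 7.25%, 9.81% and 4.56% were. DESeq2 called 1 higher in iWAT (1.18% of all genes), as did edgeR without iWAT C6KO replicate 3 (2.21%). Bdh1, which interconverts the ketone bodies, was at -0.30 ± 0.62 in eWAT and -1.79 ± 1.86 in BAT, where it turned to 2.26 ± 1.01 without WT replicate 2. For 10 genes of the citrate cycle, respiratory chain and mitochondrial outer membrane, taken as a measure of mitochondrial content, medians were 0.0811, 0.27 and 0.16, with 0 called by edgeR or DESeq2. There were 0, 3 and 0 higher at an unadjusted p under 0.05, against 7.25%, 9.81% and 4.56% of all genes. Without iWAT C6KO replicate 3 and BAT WT replicate 2 the medians were 0.0307 in iWAT and 0.0404 in BAT. The TPM sum of the 10 fatty acid oxidation genes was 0.615 ± 0.0184 times that of the content genes in WT and 0.646 ± 0.0283 in C6KO iWAT (SD, n = 3). The same ratio was 0.596 ± 0.0322 in WT and 0.640 ± 0.0848 in C6KO eWAT, and 0.780 ± 0.0682 and 0.837 ± 0.0477 for BAT (0.802 in WT without replicate 2). Every BAT library was above every white fat library in this ratio, but Ogdh, 1 of the content genes, was counted on different transcripts in the tables. Without it the lowest BAT library, at 0.773, overlapped the highest eWAT library, at 0.773, with means of 0.643, 0.623 and 0.819 in WT iWAT, eWAT and BAT.

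Between depots the wider pathway lay on the same side as the 9 genes. In WT mice 17 of the 18 further enzymes were called higher in BAT than in iWAT and 18 higher than in eWAT. Of all genes 20.1% and 25% were. Acaa2, the mitochondrial thiolase, stood at 4.24 ± 0.21 and 4.76 ± 0.21, and Etfdh, which passes electrons from the acyl-CoA dehydrogenases to ubiquinone, at 3.60 ± 0.18 and 4.42 ± 0.19. Of the mitochondrial content genes 9 of 10 were higher in each comparison. Regulators were mixed, with 6 of 12 higher and 2 lower in BAT than in iWAT, led by Ppara (5.35 ± 0.47) and Ppargc1a, a coactivator of mitochondrial genes (3.75 ± 0.32). In eWAT 15 of the 18 enzymes and 6 of 10 content genes were lower than in iWAT, where 12.9% of all genes were. Hadh, which acts on shorter hydroxyacyl-CoA, stood at -1.26 ± 0.19 and Eci1, an enoyl-CoA isomerase, at -1.13 ± 0.19. Without BAT WT replicate 2 the enzymes called higher were again 17 and 18, and the regulators 7 higher and 2 lower against iWAT. Among the genes of these lists the transcript counted differed between depot tables for Acsl6, Cpt1c, Slc22a5, Esrrg, Nrf1, Ppara, Ppargc1b and Ogdh, so their values between depots also hold that difference, which was not so for the 10 genes.

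Markers of cell types differed with genotype as well. The 6 adipocyte markers summed to 54766 to 64123 TPM in WT and 73381 to 74927 TPM in C6KO iWAT, and to 23293 to 29216 TPM and 33180.0 to 40849 TPM in eWAT, without overlap. In eWAT 2 of 6, Plin1 and Lipe, were called higher, where 0.746% of all genes were called in either direction. In iWAT adjusted p-values of the 6 ran from 0.191 (Cidec) to 0.424 (Plin1) by edgeR, above the threshold. The 8 macrophage markers summed to 2575 to 2839 TPM in WT and 547 to 1887 TPM in C6KO iWAT, to 9629 to 11274 TPM and 6223 to 7469 TPM in eWAT, and to 912 to 1035 TPM and 272 to 439.9 TPM in BAT. All 8 macrophage markers had estimates below 0 in each depot, where 53.8%, 49.1% and 46.1% of all genes lay above 0 (iWAT, eWAT, BAT). In eWAT their adjusted p-values ran from 0.0655 (Adgre1) to 0.257 (Cd14) by edgeR, above the threshold. In BAT 4 were called lower (1.24% of all genes called, either direction) and 5 without WT replicate 2 (1.29%). In iWAT 8 were called lower without C6KO replicate 3, where 8.64% of all genes were called, against 0.0275% with it. With that library the adjusted p-values of these markers ran from 0.178 (Csf1r) to 0.340 (Trem2) by edgeR, above the threshold. It was set apart by its macrophage sum, so the calls without it are not a separate test of these markers. Hepatocyte markers summed to 20.5 to 29.9 TPM in WT and 51.2 to 148 TPM in C6KO eWAT, endothelial markers to 278 to 329 TPM and 370.3 to 474 TPM, and mesothelial markers to 120.4 to 205 TPM and 38.0 to 185 TPM. As a percent of the adipocyte marker sum the 10 genes stood lower in C6KO than in WT, at 3.62% ± 0.0933 against 4.13% ± 0.272 in iWAT and 5.22% ± 0.190 against 6.26% ± 0.405 in eWAT (SD, n = 3), whereas their sum over the whole library stood higher. In BAT the percent was 49.2% ± 6.16 in C6KO and 37.4% ± 3.46 in WT (36.8% without replicate 2). The part of cell composition in the genotype differences was not tested.

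**Figure D5:**
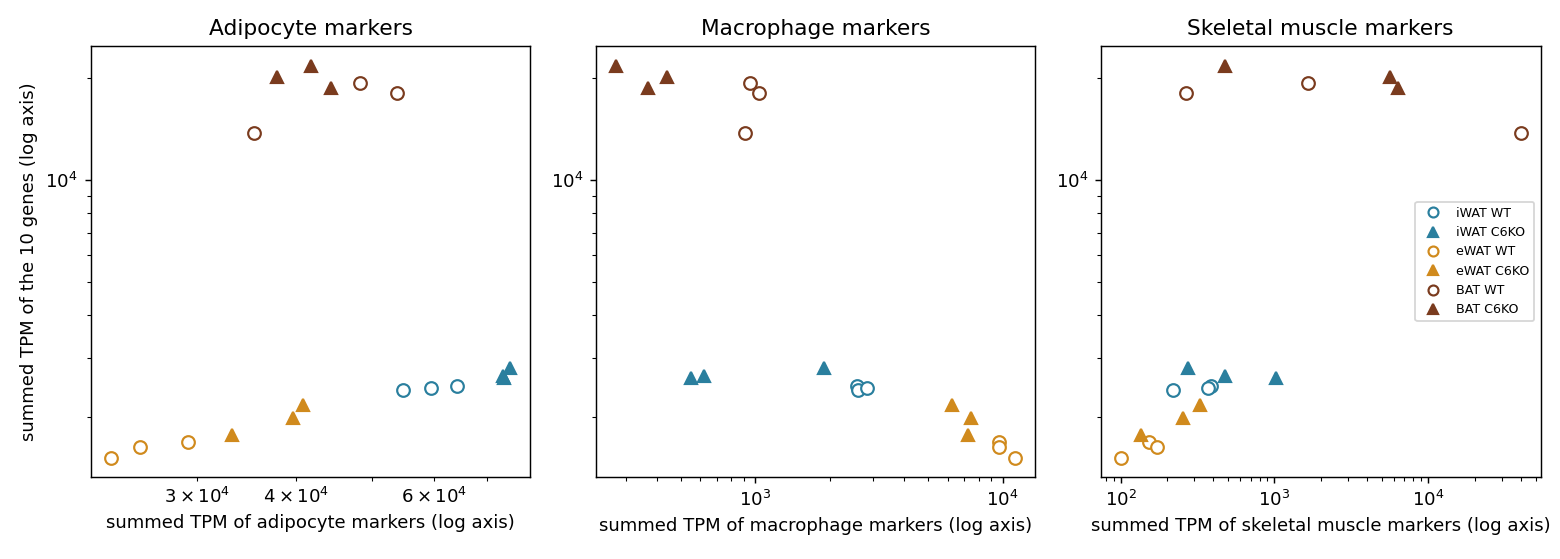
Summed TPM of the 10 genes against the summed TPM of adipocyte, macrophage and skeletal muscle markers in each of the 18 libraries (log axes; open circles WT, filled triangles C6KO, colours as depots). In white fat the C6KO libraries lie at higher adipocyte and lower macrophage sums than the WT libraries of the same depot, and 1 BAT WT library lies apart at 39767 TPM of muscle markers.

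Within groups most of the genes varied together. Over the 18 libraries, each taken as its deviation from the group mean, Pearson's r with the mean of the 10 was highest for Acads (0.92), Hadhb (0.90) and Acadvl (0.89), lower for Acadm (0.86), Acadl (0.82), Hadha (0.81), Slc25a20 (0.73) and Cpt2 (0.53), and lowest for Cpt1b (0.34) and Cpt1a (-0.0439). Of all genes tested Ghitm, Mecr, Atp5b, Coq6 and Crk were closest by this measure (r from 0.93 to 0.98). On the levels themselves, where brown and white fat form separate clusters, Etfdh, Dlst, Ghitm and Idh3g were among the closest. Each of the 10 genes is part of the mean of the 10, which tends to raise its r. Between pairs of the 10, as deviations, r ran from -0.46 (Cpt1a with Cpt2) to 0.92 (Acadvl with Acadl). Leaving aside Cpt1a and Cpt1b, the lowest was 0.45 (Cpt2 with Hadha). These values are descriptions, and the libraries share tissue composition and, in BAT, the library rich in muscle markers.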

How the data were processed

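Per the labels and the study's methods, poly(A) RNA was sequenced on an Illumina NextSeq, and the authors aligned reads to mm10 with STAR and counted exon reads with HOMER, keeping 1 transcript per gene. Tool versions, annotation and strandedness are not given in the sources used here. The deposited values are raw read counts per gene, 1 table per depot. Groups came from the labels, the depot of a table from its name. Nothing says which libraries share an animal across depots. Depot and interaction tests took all libraries as independent, which shared animals would break, so p-values measure the spread between these libraries.

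Counts were tested with edgeR 4.0.16 in R 4.3.3 (filterByExpr, TMM, robust quasi-likelihood F test, Benjamini-Hochberg over all genes tested), genotypes within each depot (6 libraries), depots and interactions in 1 fit of 18. All 10 genes passed the filter in every depot. The main alternative was DESeq2 1.42.0. Others changed the scaling, the low-count filter, the fold change minimum, the samples fitted, the replicate block and the genes kept, or left out 1 library. TPM were computed here from counts and the lengths in the tables, CPM with TMM factors. The code was tested on simulated data. Fits without BAT WT replicate 2 or iWAT C6KO replicate 3 were extended to the other lists after the data were seen. The 10 genes, the lists and the naming rule were chosen with earlier results of these data known. The rule names all 10 genes and Casp6, the 2 largest differences per list and comparison, and the 5 genes closest to the mean of the 10. A few genes that the rule names are not reported here. Genes named for a DESeq2 call (Eci1, Ncor1 in iWAT), Mlycd, Etfa, Plin1 and Lipe were chosen after their values were seen. Counting error, taken as 1 over the root of the mean count, exceeded the spread between libraries for Cpt1b in WT eWAT.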

Additional observations from a re-analysis of the deposited data

How the results depend on the processing

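Counts of the 10 genes called moved by over 1.5 times in 2 comparisons. For C6KO against WT in eWAT the count rose from 0 to 1, Cpt1b, with DESeq2, with no filter on low counts and with the replicate block, and ranged from 0 to 1 over the libraries left out. For eWAT against iWAT in WT it was 8 with no fold change minimum and 6 without iWAT WT replicate 1 or 2, in place of 5, and in C6KO 7 with no fold change minimum in place of 6. The replicate numbers were not shown to pair libraries, as in no set did every same-numbered pair correlate above 0.1. For iWAT with BAT, though, every same-numbered pair (0.0401 to 0.059 in WT, 0.0189 to 0.0732 in C6KO) lay above every other pair (up to 0.0378 and 0.01). Between genotypes in BAT same-numbered pairs ran from -0.458 to -0.148. Whether a number marks a shared animal or batch was not tested. The replicate block gave 8 higher and 54 lower over all genes for iWAT, 298 higher and 116 lower for eWAT and 12 higher and 101 lower for BAT, where edgeR without it gave 1 higher and 3 lower, 80 higher and 31 lower and 23 higher and 145 lower and DESeq2 169 higher and 505 lower, 429 higher and 189 lower and 156 higher and 389 lower. In the interactions DESeq2 called 64 higher and 100 lower for BAT against iWAT, 52 higher and 289 lower for BAT against eWAT and 9 higher and 5 lower for eWAT against iWAT, where edgeR called 11 higher and 18 lower, 8 higher and 77 lower and 0 higher and 0 lower. Scaling by library totals shifted all genes by -0.29 between BAT and eWAT in WT. With totals Cpt1a turned to -0.01125 between genotypes in eWAT, and Hadha to 0.01716 in WT and 0.1276 in C6KO for eWAT against iWAT. Hadha in C6KO also turned to 0.008255 with at least 10 counts in every library and 0.003822 with 2 groups, and the interaction of Acadl in BAT minus eWAT to 0.0007462 with at least 10 counts. With the replicate block Acsl6 turned to 0.326 and Bdh1 to 0.1692 in BAT. The cause of these reversals was not tested, and none of the values was called. Leaving out 1 library at a time also turned signs. Between genotypes Cpt1a ranged from -0.168 to 0.0955 in iWAT and -0.0425 to 0.126 in eWAT, Bdh1 from -0.915 to 0.152 in eWAT, and in BAT Acsl6 from -2.06 to 2.12, Bdh1 from -2.51 to 2.26 and Hadhb from -0.179 to 0.348. Between eWAT and iWAT in C6KO Cpt1b ranged from -0.0632 to 0.178 and Hadha from -0.103 to 0.0245. Interactions of BAT minus eWAT ranged from -0.255 to 0.126 (Acadl), -0.137 to 0.207 (Acadvl), -0.121 to 0.178 (Cpt2), -0.0619 to 0.221 (Hadha) and -0.0729 to 0.395 (Slc25a20). Those of BAT minus iWAT ranged from -0.131 to 0.250 (Acadl), -0.311 to 0.0493 (Acads), -0.182 to 0.184 (Cpt1b), -0.178 to 0.215 (Cpt2), -0.430 to 0.125 (Hadhb) and -0.340 to 0.128 (Slc25a20), and those of eWAT minus iWAT from -0.0255 to 0.298 (Acadl), -0.0585 to 0.201 (Cpt1a) and -0.231 to 0.162 (Cpt2). Without C6KO replicate 3 of iWAT, edgeR called 327 higher and 951 lower over all genes there, Casp6 among them. The median of the 10 genes ranged from 0.23 to 0.44 in eWAT (highest without C6KO replicate 3) and from 0.0873 to 0.36 in BAT (without WT replicates 2 and 1). The other alternatives kept the direction, in 2474 values on the same side of the threshold, 48 newly past it and 4 no longer past it (Casp6 in eWAT without any 1 WT library, and Acadm between eWAT and iWAT in C6KO with library totals).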
